A study of Mus musculus with 4 samples.

Results

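The interleukin-6 (IL-6) receptor and STAT3 axis was examined as 5 genes, Il6ra, Il6st, Jak2, Stat3 and Socs3, among 19938 genes measured on 4 mouse arrays. They were taken by name, each through a probe set annotated with that symbol alone, and where a gene had more than 1 such probe set the one with the highest mean over the 4 arrays was kept. The 2 CYLD knockout (KO) samples were YFP-positive regulatory T (Treg) cells of Cyld fl/fl Foxp3-yfp-cre mice, and the 2 wild-type (WT) samples were the same sorted population of Cyld+/+ Foxp3-yfp-cre mice. All mice were C57Bl6 and 6 to 8 weeks old, and both groups carried the Foxp3-yfp-cre allele, in which Foxp3 drives the Cre recombinase and the yellow fluorescent protein used for sorting. Deletion of Cyld is therefore directed to cells that express Foxp3. The labels name spleen with lymph nodes in 1 place and spleen alone in another, and they do not say whether replicates came from separate mice, so p-values measure only the spread between these samples, which may be technical within WT.

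IL-6 binds the alpha chain encoded by Il6ra, and the pair then engages gp130, the signal-transducing chain encoded by Il6st that is shared by most of the IL-6 cytokine family. JAK kinases bound to gp130, JAK2 among them, phosphorylate the transcription factor STAT3, which enters the nucleus. STAT3 induces Socs3, whose product binds gp130 and JAK and shuts the signal down. In CD4 T cells IL-6 with TGF-beta favours T helper 17 differentiation and opposes the induction of Foxp3. CYLD, the deubiquitinase whose gene was targeted here, trims linear and lysine-63-linked chains of ubiquitin, which restrains NF-kB.

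Both receptor chains and the feedback inhibitor were lower in CYLD KO cells, while Stat3 itself averaged 97.2% of its level in WT cells. Of the 5 genes, Il6ra, Il6st and Socs3 fell and 0 rose at a limma adjusted p under 0.05. Across all 13956 genes tested, 3.50% were lower, 4.79% higher and 8.30% changed in either direction. The arrays of the 2 groups did not overlap for 4 of the 5 genes, against 48.7% of all genes tested. The median log2 fold change, KO over WT, was -0.60 over the 5 genes and -0.02 over all genes tested. Values are intensities on a linear scale as deposited, and fold changes are differences of log2(intensity + 1).

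The DNA just before the annotated start of the receptor genes is shown because both receptor genes fell together, and a short stretch of Socs3 is shown because it held the one match to a STAT motif. RefSeq promoter sequences of build GRCm38.p6 were found for all 5 genes. The Il6ra window is chr3:89913197-89913446 on the minus strand, the Il6st window is chr13:112463820-112464069 on the plus strand, and the Socs3 stretch is chr11:117969502-117969530 on the minus strand. Sequences run 5′ to 3′ along the gene's strand, and capitals mark a motif match.
Il6ra: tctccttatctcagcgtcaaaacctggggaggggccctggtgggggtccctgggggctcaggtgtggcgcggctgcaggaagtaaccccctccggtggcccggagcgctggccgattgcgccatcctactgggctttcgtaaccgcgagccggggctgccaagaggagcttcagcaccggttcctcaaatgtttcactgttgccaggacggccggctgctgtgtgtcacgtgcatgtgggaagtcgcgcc
Il6st: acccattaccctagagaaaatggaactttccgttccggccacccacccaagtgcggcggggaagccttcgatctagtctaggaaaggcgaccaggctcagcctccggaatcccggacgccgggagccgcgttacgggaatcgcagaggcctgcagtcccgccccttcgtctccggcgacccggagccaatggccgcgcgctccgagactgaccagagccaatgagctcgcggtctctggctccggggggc
Socs3: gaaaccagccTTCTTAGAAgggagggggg

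The 250 bases before the start that the RefSeq table uses for each of the 5 genes were searched on both strands. The patterns were the STAT motif TTCNNNGAA and the NF-kB motif GGGRNNYYCC, where N is any base, R is A or G and Y is C or T. The STAT motif matched once, in Socs3, between 154 and 146 bases before that start. The Socs3 window lies inside the span of the RefSeq gene record, so this match may not be upstream of the gene. It occurred in 7.02% of 32851 windows of that length. The NF-kB motif in this strict form had 0 matches in the 5 windows and occurred in 7.25% of all windows. Looser forms of the NF-kB motif were not searched, so sites of that kind may be present. A match is a run of letters and not a measured binding site, and the search bears on these windows only. The GC content was 65.2% in the Il6ra window and 66.0% in the Il6st window, against a median of 52.4% over all windows.

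**Figure D1:**
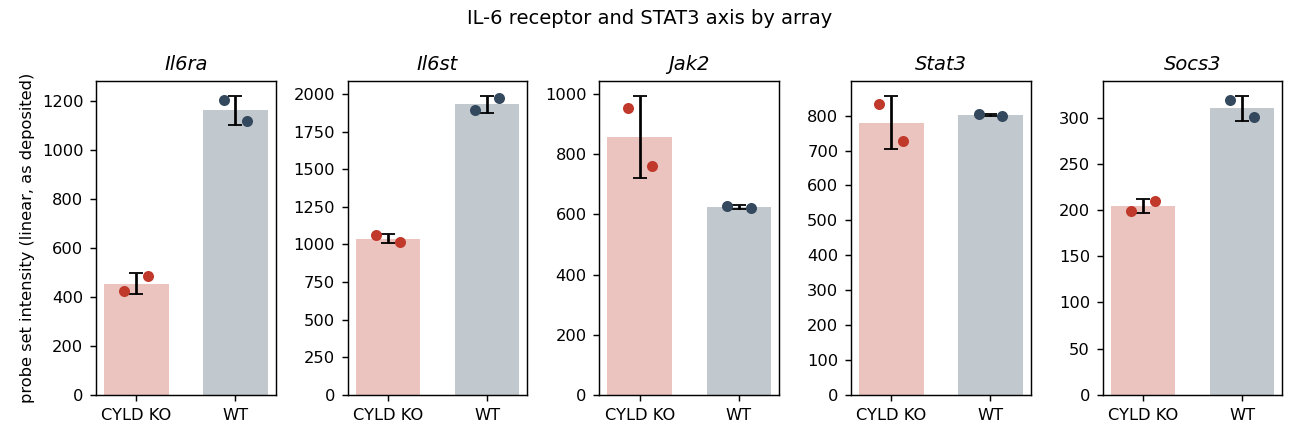
Intensity (linear, as deposited) of the 5 genes on each array, with CYLD KO left of WT. Points are arrays, bars are means and error bars are SD (n = 2 arrays per group). Il6ra, Il6st and Socs3 lie lower on both KO arrays, Jak2 lies higher on both, and the groups overlap for Stat3.

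Il6ra, the ligand-binding chain, had the strongest change of the 5. It read 425 and 484 on the KO arrays, against 1203 and 1119 on the WT arrays. Both KO values lay far below both WT values, and the gap between the nearest arrays of the 2 groups was 1.21 on the log2 scale, compared with 0.19 between the KO arrays and 0.10 between the WT arrays. The mean was 454 ± 42.0 in KO cells and 1161 ± 59.2 in WT cells (SD, n = 2 each), so KO cells had 39.1% of the WT level. On the log2 scale this was a change of -1.35 ± 0.17 (SE; adjusted p = 3.45e-13 in limma), and its 95% interval ran from -1.69 to -1.02. This was the 12th largest fall among the genes tested. The change stayed past the threshold when any single array was left out, with log2 fold changes of -1.45 to -1.26.

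Il6st, which encodes gp130, read 1062 and 1016 on the KO arrays, against 1891 and 1970 on the WT arrays. Within each group the arrays lay close together, and the groups did not overlap. The mean was 1039 ± 32.4 in KO cells and 1931 ± 56.1 in WT cells (SD, n = 2 each), 53.8% of the WT level. The log2 change of -0.89 ± 0.17 (SE; adjusted p = 8.34e-06 in limma) was the 81st largest fall. Leaving out single arrays gave -0.92 to -0.86, each past the threshold. The log2 fold change of Il6ra minus that of Il6st was -0.46. The within-array difference, Il6ra minus Il6st, was -1.32 and -1.07 on the KO arrays, against -0.65 and -0.82 on the WT arrays, without overlap. An exact permutation test over 2 arrays against 2 cannot go below p = 0.333, two-sided, and therefore decides nothing about this difference.

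Jak2, the tyrosine kinase, lay the other way. It read 954 and 762 on the KO arrays, against 630 and 621 on the WT arrays. Both KO arrays were above both WT arrays, but they also differed from each other by 0.32 on the log2 scale. The mean was 858 ± 136 in KO cells and 625 ± 5.95 in WT cells (SD, n = 2 each). The log2 fold change was 0.45 ± 0.17 (SE) with a 95% interval of 0.11 to 0.78, and it did not pass the threshold (limma adjusted p = 0.0839). Jak2 did pass without KO replicate 2 (log2 fold change 0.61, limma adjusted p = 0.0179) and when the variance was allowed to follow intensity (adjusted p = 0.0252). Without KO replicate 1 its log2 fold change was 0.29 (adjusted p = 0.281).

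Stat3, the factor that carries the signal to the nucleus, read 834 and 726 on the KO arrays, against 805 and 800 on the WT arrays. One KO array lay above both WT arrays and the other below both. The mean was 780.2 ± 76.3 in KO cells and 802 ± 3.43 in WT cells (SD, n = 2 each). Its log2 change of -0.04 ± 0.17 (SE; adjusted p = 0.918 in limma) came with a 95% interval of -0.38 to 0.29. The interval leaves room for a change in either direction. The smallest absolute log2 fold change called among all genes tested was 0.49, and smaller ones did not pass. Transcript level says nothing of STAT3 phosphorylation, which was not measured.

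Socs3, the feedback inhibitor, read 199 and 209 on the KO arrays, against 319 and 301 on the WT arrays. The groups did not overlap, and the replicates of each group lay within 0.09 of each other on the log2 scale. The mean was 204 ± 7.43 in KO cells and 310.0 ± 13.4 in WT cells (SD, n = 2 each), 65.9% of the WT level. The log2 change was -0.60 ± 0.17 (SE; adjusted p = 0.00811 in limma), with a 95% interval of -0.93 to -0.27. The call was lost without WT replicate 1 (adjusted p = 0.279) and without WT replicate 2 (adjusted p = 0.127). A dimmer second Socs3 probe set read 105 and 90.6 on the KO arrays, against 113 and 135 on the WT arrays, a log2 difference of -0.33, and with both probe sets averaged the log2 fold change of the gene was -0.47 (adjusted p = 0.0627).

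The log2 fold changes of the 5 genes ran from -1.35 for Il6ra to 0.45 for Jak2. The change of Il6ra minus that of another gene was -1.80 for Jak2, -1.31 for Stat3 and -0.75 for Socs3. Taken array by array, log2 Il6ra minus log2 Socs3 was 1.09 and 1.20 on the KO arrays, against 1.91 and 1.89 on the WT arrays. For Stat3 it was -0.97 and -0.58 on the KO arrays, against 0.58 and 0.48 on the WT arrays, and for Jak2 it was -1.17 and -0.65 on the KO arrays, against 0.93 and 0.85 on the WT arrays. In each of these 3 comparisons the 2 KO arrays lay below the 2 WT arrays, and the gap between the groups was wider than the spread within either.

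**Figure D2:**
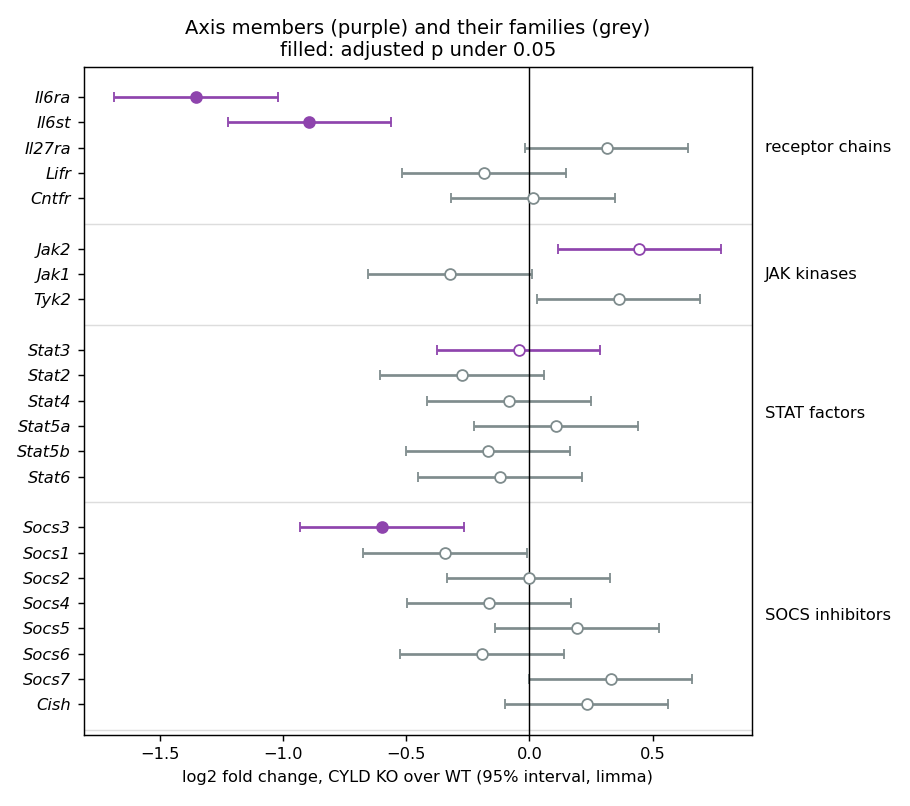
Log2 fold change, CYLD KO over WT, with the 95% interval of the limma fit, for the axis genes (purple) and the tested members of their families (grey); filled points have an adjusted p under 0.05. Il6ra, Il6st and Socs3 are filled, and all the grey points are open.

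The other tested members of the same families did not pass the threshold, which 8.30% of all genes tested passed in either direction. In lists this small, counts of 0 are near that share. When the variance was allowed to follow intensity, 1 other JAK kinase was lower. Of 2 other JAK kinases tested, 0 were higher and 0 lower, with a median log2 fold change of 0.02. Jak1, the JAK kinase that IL-6 signalling in many cells needs most, read 2262 and 2033 on the KO arrays, against 2761 and 2603 on the WT arrays (log2 fold change -0.32, limma adjusted p = 0.270). Of 5 other STAT factors tested, 0 were higher and 0 lower, with a median of -0.12. Stat4, which transmits interleukin-12 signals, had a log2 fold change of -0.08 (adjusted p = 0.835). Of 7 other SOCS inhibitors tested, 0 were higher and 0 lower, with a median of -0.0032, and Cish, a target of STAT5, had a log2 fold change of 0.23 (adjusted p = 0.467). Whether Socs3 changed by more than its relatives was not tested.

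Among the IL-6 family cytokines and their other receptors, 1 of 9 tested genes was higher and 0 were lower, against 4.79% and 3.50% of all genes tested. Their median log2 fold change was -0.07. The higher one was Ebi3, a subunit shared by IL-27 and IL-35, which read 428 and 363 on the KO arrays, against 247 and 249 on the WT arrays (log2 fold change 0.67, limma adjusted p = 0.00230). Ebi3 did not pass without either WT array, where 0 genes of this list were called. Il27ra, the IL-27 receptor chain that pairs with gp130, was named after its value was seen. It read 1646 and 1627 on the KO arrays, against 1342 and 1292 on the WT arrays, a log2 fold change of 0.31 that did not pass (adjusted p = 0.286). Of 5 other receptors that signal through STAT3 in T cells, 1 was higher and 0 lower. This was Il12rb1, a chain of the IL-12 and IL-23 receptors, with a log2 fold change of 0.49 (adjusted p = 0.0459), and 0 were called when any single array was left out.

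Of 14 tested genes for receptor-shedding proteases, phosphatases, PIAS proteins and adaptors, 0 were higher and 0 lower. Over all genes tested 8.30% changed in either direction. The median log2 fold change of the 14 was 0.11. Without KO replicate 1, 1 of them was higher and 1 lower. Ptprc, which encodes the phosphatase CD45, had a log2 fold change of -0.37 (limma adjusted p = 0.185). Adam10 and Adam17, proteases that can cleave the IL-6 receptor from the cell surface, were named after their values were seen. Their log2 fold changes were 0.08 and 0.11, with adjusted p-values of 0.830 and 0.771.

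STAT3 target genes moved in both directions. Of 21 tested genes on a list of T cell targets, 5 were higher and 2 lower, against 4.79% and 3.50% of all genes tested. The median log2 fold change of the 21 was 0.23. Ahr, the aryl hydrocarbon receptor, read 986 and 927 on the KO arrays, against 492 and 460 on the WT arrays. Batf, an AP-1 family factor needed for T helper 17 cells, read 815 and 708 on the KO arrays, against 414 and 429 on the WT arrays. Both rose, by log2 fold changes of 1.01 and 0.85 (limma adjusted p = 2.90e-07 and 3.01e-05). Myc, a driver of cell growth, read 425 and 437 on the KO arrays, against 878 and 847 on the WT arrays. Bcl2, a survival factor, read 656 and 760.2 on the KO arrays, against 1363 and 1262 on the WT arrays. Both fell, with log2 fold changes of -0.998 and -0.89 (adjusted p = 3.53e-07 and 8.55e-06). Without WT replicate 2, 2 of the 21 were higher and 2 lower. Several of these genes are also targets of other factors, and STAT3 binding was not measured.

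**Figure D3:**
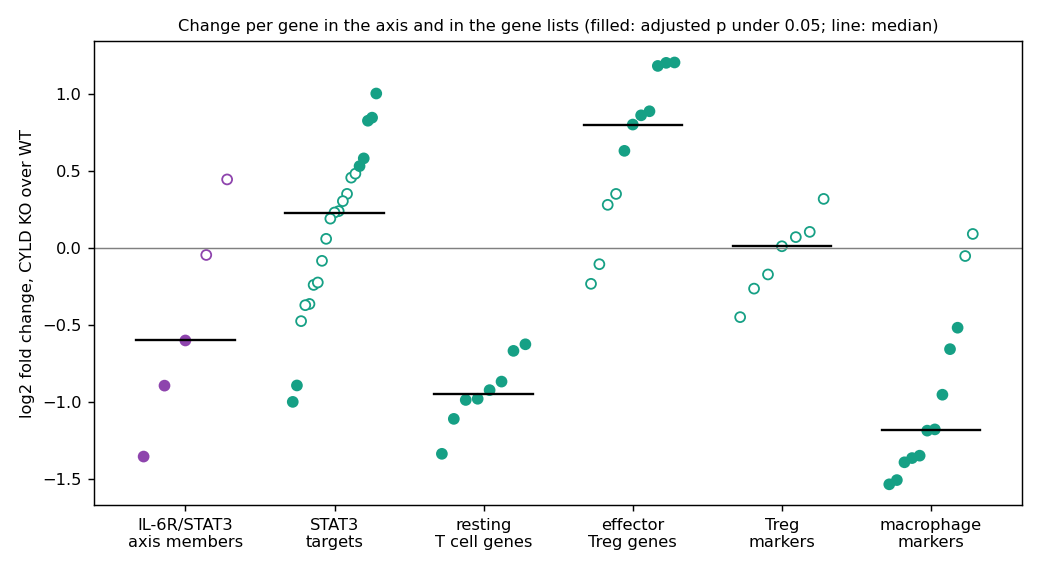
Log2 fold change, CYLD KO over WT, of each tested gene in the axis, among STAT3 targets, in the resting T cell and effector Treg lists and among Treg and macrophage markers; filled points have an adjusted p under 0.05 and lines are medians. The axis has 3 filled points below 0, STAT3 targets have filled points on both sides, and the resting and macrophage lists have filled points below 0 alone.

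The fall of the receptor genes went along with shifts in 3 other gene groups. Of 8 tested resting T cell genes, 8 were lower, against 3.50% of all genes tested, with a median log2 fold change of -0.95. Of 11 tested effector Treg genes, 7 were higher and 0 lower, against 4.79% and 3.50% of all genes tested, with a median of 0.80. With single arrays left out, the medians ran from -0.97 to -0.87 for the resting genes and from 0.73 to 0.87 for the effector genes. Actn1, an actin crosslinker, Igfbp4, a binding protein of insulin-like growth factors, Ccr7, a receptor for entry into lymph nodes, and S1pr1, a receptor for exit from them, fell with log2 fold changes of -1.34, -1.11, -0.99 and -0.98 (limma adjusted p from 7.65e-13 to 6.50e-07). Itgae, Havcr2, Ccr8 and Cxcr3, an integrin chain, an inhibitory receptor and 2 chemokine receptors of activated Treg cells, rose by 1.21, 1.20, 1.18 and 0.89 (adjusted p from 2.06e-10 to 8.95e-06). Their part in the change of Il6ra and Il6st was not tested.

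Macrophage and monocyte markers also fell. Il6ra is known to be expressed by these cells too. Of 12 tested markers, 10 were lower and 0 higher, against 3.50% and 4.79% of all genes tested. The summed intensity of the 14 markers on the array was 1276 and 1606 on the KO arrays, against 2939 and 2788 on the WT arrays. All 5 defining markers, Csf1r, Adgre1, C1qa, C1qb and C1qc, fell, and Csf1r read 73.6 and 102 on the KO arrays, against 230 and 214 on the WT arrays. None of the defining markers is at 0, since no value on these arrays lies below 26.6. On the KO arrays Adgre1 read 64.7 and 74.2, C1qa 71.0 and 77.9, and C1qc 65.9 and 81.3. These values lie within the range of the granulocyte markers S100a8, S100a9 and Ly6g, 47.0 to 89.8. Csf1r and C1qb (78.7 and 95.3) lay above that range on KO replicate 2 only. The fold changes of the defining markers thus rest in part on values near background. The KO means of Adgre1, C1qa and C1qc lay below the intensity filter (a mean log2 value of 6.29). Those of the markers Slc40a1 and Spic did too. All of these genes passed the filter only through their WT values. The count of 10 includes them, so it is no fair comparison with the share over all genes tested. The part of the macrophage and monocyte markers in the fall of Il6ra was not tested. In these bulk samples fewer cells of a type and less RNA per cell cannot be told apart.

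The 3 genes with the pattern most like that of Il6ra came from these same groups. Likeness was the Euclidean distance between log2 values on the 4 arrays after subtracting each gene's mean, and with 4 arrays it is mainly a matching of fold changes. The nearest was Actn1 (distance 0.07), which read 550.2 and 626 on the KO arrays, against 1488 and 1479 on the WT arrays. Slc40a1, an iron exporter of macrophages (distance 0.08), read 58.6 and 65.1 on the KO arrays, against 175 and 153 on the WT arrays. Spic, a transcription factor of splenic red pulp macrophages (distance 0.10), read 53.4 and 67.2 on the KO arrays, against 162 and 149.8 on the WT arrays. On the KO arrays Slc40a1 and Spic read within the range of the granulocyte markers S100a8, S100a9 and Ly6g on these arrays, 47.0 to 89.8. Their KO values also lay below the intensity filter (a mean log2 value of 6.29), so both genes were tested only through their WT values. Their distances and ranks therefore rest in part on values near background and are no support for a shared pattern. Il6st was the 72nd nearest gene, at a distance of 0.51.

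Of 7 Treg markers, 0 were higher and 0 lower, where 8.30% of all genes tested changed in either direction. The log2 fold change was positive for 4 of the 7. Foxp3 read 1697 and 1553 on the KO arrays, against 2016 and 1881 on the WT arrays. Its log2 fold change of -0.26 did not pass (limma adjusted p = 0.395). The groups did not overlap for Foxp3, as for 48.7% of all genes tested. Il2ra, named after its value was seen, read 1914 and 1810 on the KO arrays, against 2579 and 2499 on the WT arrays. Its log2 fold change was -0.45 (limma adjusted p = 0.0831), also without overlap. Cd3e and Cd4 were at 3615 and 2978 and at 2169 and 1974 on the KO arrays, against 3240 and 3264 and 2033 and 1818 on the WT arrays. Cyld itself read 284 and 218 on the KO arrays, against 524 and 502 on the WT arrays (log2 fold change -1.04, limma adjusted p = 8.96e-08). The KO mean was 48.9% of the WT level. The probe set may lie outside the deleted part, and how complete the loss of CYLD was cannot be told from these values. Granulocyte markers had 0 of 3 tested genes past the threshold, and the defining S100a8, S100a9 and Ly6g lay between 47.0 and 89.8 on all arrays. B cell markers had 0 of 3 and dendritic cell markers 0 of 4 past it. Among CD8 T and NK markers 1 of 4 was higher, Eomes, a factor that T helper cells can also express and that was named after its value was seen. Cd8a and Cd8b1 did not pass (limma adjusted p = 0.789 and 0.491). Cd8a read 120 and 92.5 on the KO arrays, against 101 and 95.3 on the WT arrays. Cd8b1 read 469 and 426 on the KO arrays, against 362 and 405 on the WT arrays, well above the granulocyte markers on every array. KO replicate 2 stood apart in sex-linked genes, also named after their values were seen. The Y-chromosome genes Kdm5d, Eif2s3y and Uty read 268, 221 and 283 on KO replicate 1 and 127, 98.9 and 132 on KO replicate 2, against 271, 253 and 225 on WT replicate 1 and 275, 219 and 219.7 on WT replicate 2. Xist read 1630 and 2321 on the KO arrays, against 1306 and 1403 on the WT arrays, so it was higher on both KO arrays. Repeats of 1 RNA would not differ as the KO arrays do, so the KO arrays are not technical repeats. On every array Xist and these Y-chromosome genes lay above S100a8, S100a9 and Ly6g. Whether each sample held RNA of both sexes was not tested. Without KO replicate 2, Il6ra, Il6st and Socs3 had log2 fold changes of -1.45, -0.86 and -0.64.

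**Figure D4:**
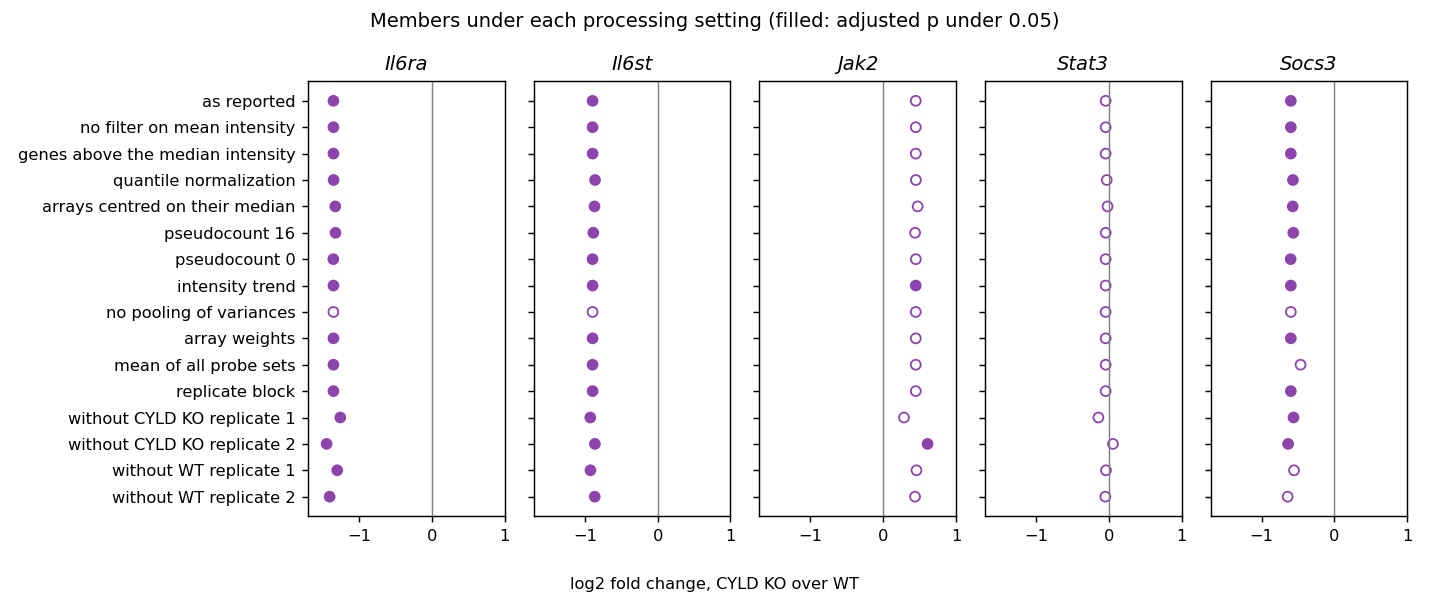
Log2 fold change, CYLD KO over WT, of the 5 genes as reported and under 15 alternative settings; filled points have an adjusted p under 0.05. Il6ra and Il6st are filled in all settings but the fit with no pooling of variances, Socs3 is open in 4, and Jak2 is filled in 2.

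All these calls use 1 variance shared by the whole table, which gave every fold change the same standard error of 0.17. In the fit with no such pooling 0 genes passed in the whole table, with 1814 at an unadjusted p under 0.05. Il6ra, Il6st and Socs3 then had adjusted p-values of 0.254, 0.226 and 0.270.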

How the data were processed

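Total RNA of sorted Treg cells was labelled with biotin by the standard Affymetrix procedure and hybridised to 4 arrays, per the labels' protocols. The authors deposited 1 intensity per probe set and array, linear in scale and ranging from 26.6 to 7205, with array medians of 99.0 to 105; the scale follows from the values, and how they were summarised, corrected and scaled is not stated by the labels or the table. Of 35557 probe sets, 21789 had exactly 1 gene symbol in a platform annotation of 2016, and all 5 axis genes matched a RefSeq gene record by Entrez identifier. Values were converted to log2(intensity + 1), each gene kept its probe set of highest mean, and the dimmest genes, up to the 30th percentile (a mean log2 value of 6.29), were left untested. All 5 axis genes passed that filter. KO was compared with WT by lmFit and eBayes of limma (version 3.58.1, R 4.3.3), with Benjamini-Hochberg adjustment over all genes tested. Each gene had 2 residual degrees of freedom, and the fit replaced the variance of each gene by 1 variance shared by all genes. The number of arrays limits the precision. Nothing in the labels pairs the replicate numbers. The genes, lists and tests were chosen with earlier results of these data known, so they are no independent support. Genes outside the axis were named by rule: up to 4 called genes with the largest change per pathway list, the brightest gene where a list had none, Cyld, the defining markers and the 3 genes nearest to Il6ra. Exceptions are stated. Alternatives covered the filter, scaling, pseudocount, variance model, array weights, probe set choice, replicate block and single arrays left out; with 1 array left in a group, that array is assumed to vary like the others.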

Additional observations from a re-analysis of the deposited data

How the results depend on the processing

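Il6ra and Il6st kept their direction under all 15 alternatives and stayed past the threshold in 14, all but the fit with no pooling of variances (log2 fold changes -1.35 and -0.89, adjusted p = 0.254 and 0.226). Socs3 was no longer past it in 4: with no pooling (-0.60), with the mean of all probe sets (-0.47) and without either WT array, and single arrays left out gave -0.64 to -0.56. Jak2 passed with an intensity trend (0.45), where 1 of the 5 genes was then higher, and without KO replicate 2, with a range of 0.29 to 0.61 over single arrays left out and 0 to 1 of the 5 higher. Stat3 changed sign without KO replicate 2 (range -0.14 to 0.056) and passed in no setting. The cause of these shifts was not tested. With no pooling the fold changes are the same, but 0 genes were called higher and 0 lower, which leaves 0 of the 5 axis genes called and 0 genes called among IL-6 family genes, other STAT3-coupled receptors, STAT3 targets, resting and effector lists. Over single arrays left out, 252 to 918 genes were higher and 118 to 767 lower, and the called genes numbered 0 to 1 among IL-6 family genes, 0 in each case among other STAT3-coupled receptors, 4 to 8 among STAT3 targets and 0 to 2 among proteases, phosphatases and adaptors. With an intensity trend, 11 STAT3 targets, 1 other JAK kinase and 1 gene of the protease and phosphatase list were called, and quantile normalization also called 1 gene of that last list. Il12rb1 was not called with no filter, which left 0 among the other STAT3-coupled receptors. With the replicate number as a block, 603 genes were higher and 429 lower, 3 of the 5 axis genes were lower, and the block changed no other count but that of the STAT3-coupled receptors, to 0. The difference between the changes of Il6ra and the other members kept its sign in each of the 9 settings tried. The wild-type and knockout samples share only replicate numbers, and deviations of same-numbered samples correlated at r = -0.09.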
